A study of Mus musculus with 5 samples.

Results

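The comparison was between 2 of the 5 Affymetrix arrays of the study, both made from mouse ventromedial hypothalamus (VMH) collected 6 h after an electroconvulsive seizure (ECS): the array of mice that had received 7 shocks against the array of mice that had received 1. It asked how repetition of the seizure altered the late state of this nucleus. All animals were C57Bl/6, and both groups were shocked under isoflurane through ear clips at 25 mA for 1 sec, as 0.5 msec pulses at 100 per sec. The other 3 arrays, used here only to show where each 6 h array stood, were of sham animals at 2 h, which were handled alike without current, and of mice 2 h after 1 or 7 shocks. Each array held RNA pooled from 2 or 3 animals, taken by laser microdissection of 7 µm sections and amplified from 2 ng. The sources used here do not state age, sex or the interval between shocks. A second set of animals, which the design text mentions, was not analysed here. The titles and source fields name the VMH, while a descriptive field of the same samples names the PVN.

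The VMH is a cluster of mostly glutamatergic neurons that restrains feeding, supports glucose balance and drives defensive and mating behaviour. Its neurons carry the nuclear receptor Nr5a1, the vesicular glutamate transporter Slc17a6 and the peptide PACAP, encoded by Adcyap1. A seizure sets off a wave of immediate early transcription factors, followed by effector genes such as Bdnf and Arc that adjust synapses and signalling, and then by feedback inhibitors that end the response. Repeated seizures are the basis of electroconvulsive therapy, and in other brain regions repetition is known to dampen some early responses.

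The values are MAS5 signals, an intensity per probe set. Below, a scaled signal is the deposited value plus a pseudocount of 1.2, multiplied so that every array had 1 common median. A log2 difference is 7 shocks minus 1 shock at 6 h on that scale, so 1 stands for 2-fold. There was 1 array per group and no replicate, so no test of significance could be made and genes were called by size alone, at 2-fold. Before scaling, the kept probe sets of the 7-shock array lay 0.09 above those of the 1-shock array on the log2 scale. The 3' to 5' signal ratio of the Gapdh control was 5.55 after 7 shocks and 5.37 after 1. That of actin was 0.593 after 7 shocks, the lowest of the 5 arrays, and 1.10 after 1 shock, the highest, and its part in the differences was not tested. The added dap control, relative to the array median, was 4.49 after 7 shocks, 8.34 after 1 shock and 2.73 to 3.45 on the other 3 arrays. Across genes the 6 h arrays correlated at 0.898, the lowest of the 10 pairs of arrays.

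Of 6650 genes, 526 (7.91%) were at least 2-fold higher after 7 shocks than after 1 at 6 h, and 571 (8.59%) were at least 2-fold lower. These shares, 16.5% either way, are the background for every list count below. Without rescaling the arrays, the counts were 655 higher and 469 lower, a share of 58.3% higher in place of 47.9%. Among called genes, 402 (36.6%) had a deposited signal below the array median on at least 1 of both arrays. Where a called gene had a second probe set, 197 of 291 (67.7%) showed the same sign on it. The stricter requirement that every probe set of a gene with several be past 2-fold the same way left 41 of 2470 genes higher (1.66%) and 26 lower (1.05%).

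A called difference can come from either 6 h array, and the other 3 arrays show which one stood away from the rest. Among the 526 higher genes, 193 were past 2-fold from the median of the other 3 arrays on the 1-shock array only, and 118 on the 7-shock array only. Among the 571 lower genes the order was the opposite, with 132 on the 1-shock array only and 179 on the 7-shock array only. Of the 41 genes that were higher on every probe set, 20 stood apart on the 1-shock array only and 5 on the 7-shock array only. More of the higher genes were set apart by a low single-shock array than by a high 7-shock array. Without the 1-shock 6 h array, 293 genes (4.41%) were 2-fold higher and 356 (5.35%) 2-fold lower on the 7-shock 6 h array than the median of the other 3, which were collected at another time. Against the same median, the 1-shock 6 h array had 315 genes (4.74%) higher and 372 (5.59%) lower.

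**Figure D1:**
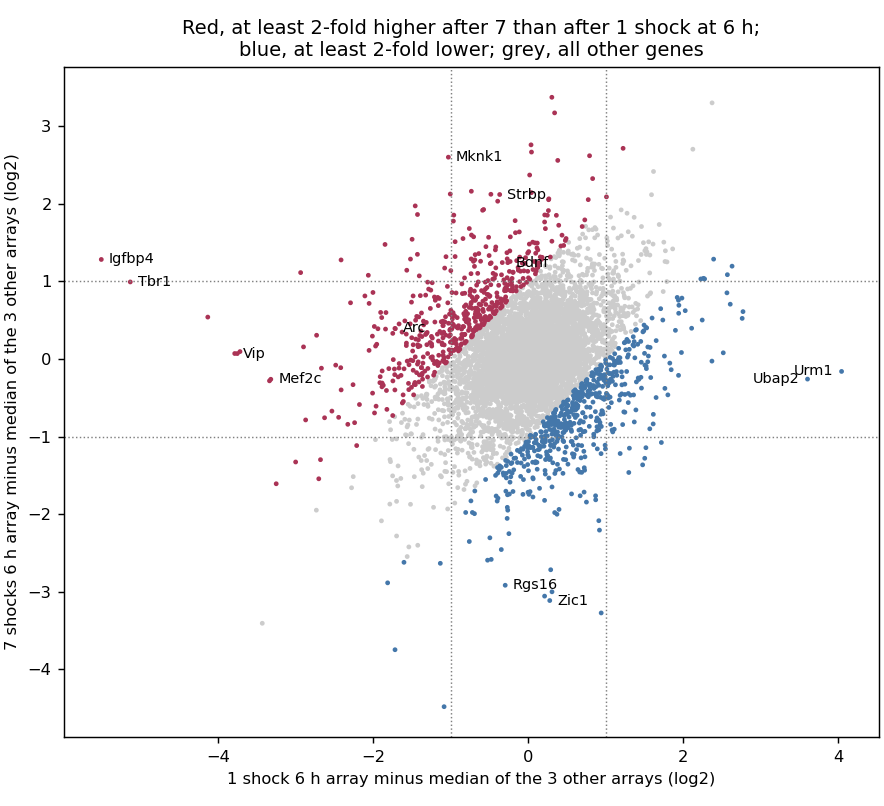
Each point is 1 of 6650 genes, placed by the log2 difference of the 1-shock 6 h array (horizontal) and of the 7-shock 6 h array (vertical) from the median of the sham and both 2 h arrays, with dotted lines at 2-fold. Red genes were at least 2-fold higher and blue genes at least 2-fold lower after 7 shocks, and Igfbp4 and Tbr1 lie far to the left, since they were low on the 1-shock array.

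Of the gene lists with 3 or more measured members, that of cortical and amygdalar excitatory neurons stood furthest from 0. In it, 4 of 5 measured genes were past 2-fold higher after 7 shocks and none was lower, with a median of 3.06 against -0.05 over all genes. Tbr1, a transcription factor of cortical projection neurons, had a scaled signal of 132 after 7 shocks and 1.90 after 1 shock at 6 h, against 66.4 on the sham array and 63.9 and 113 at 2 h after 1 and 7 shocks. Only the single-shock 6 h array was low for it. Its log2 difference of 6.12 rests on a deposited signal of 0.9 and was 4.43 with the pseudocount raised to 6.1.

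Mef2c, a transcription factor that shapes excitatory synapses, read 495 after 7 shocks and 59.4 after 1, with 621, 343 and 593 on the sham, 1-shock 2 h and 7-shock 2 h arrays. The gap of 3.06 was seen on all of its 5 probe sets, which ranged from 2.56 to 4.48. Rasgrp1, a calcium- and diacylglycerol-responsive activator of Ras, read 228 against 22.8, with 80.7 to 171 on the other 3 arrays and with its 3 probe sets between 3.32 and 3.91. Camk2a, the alpha subunit of the calcium/calmodulin kinase of excitatory synapses, read 677 against 217 (1.64), and the postsynaptic calmodulin-binding gene Nrgn differed by 0.39. Below the brightness limit, the cortical factors Neurod2 and Neurod6 had deposited signals of 62.8 and 37.6 after 7 shocks and of 0.3 and 0.5 after 1.

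Summed without the pseudocount, the scaled signal of the 9 cortical and amygdalar genes on the array was 1747 after 7 shocks and 396 after 1 shock at 6 h, against 1035 to 2030 on the other 3 arrays. So on this list the 7-shock array lay within the range of the sham and 2 h arrays, and the 1-shock array lay below it. The 2 h pair showed a smaller gap the same way, with a list median of 0.82. This list moves with several of the gene groups that follow, and its part in their differences was not tested. In such pooled tissue, fewer cells of a type and less RNA per cell cannot be told apart.

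Several genes outside that list were also far lower on the single-shock 6 h array than elsewhere. In all, 16 genes on it were at least 4-fold below each of the other 4 arrays. The same count was 6 on the 7-shock 6 h array and 4 on each of the sham and 2 h arrays. Igfbp4, a secreted carrier that holds back insulin-like growth factors, read 479 after 7 shocks and 4.34 after 1, with 164, 197 and 425 on the sham, 1-shock 2 h and 7-shock 2 h arrays. Its difference was 6.79 on the brightest of 4 probe sets and at least 2.92 on each, and 5.79 with the larger pseudocount. C1ql3, a secreted synaptic organiser, read 149 against 9.03 (4.05, and 2.08 on its other probe set). Dkk3, a secreted member of the Dickkopf family, read 655 against 79.7, with 210 to 422 on the other 3 arrays and 2.67 on its second probe set. For Dkk3 both 6 h arrays departed, upward after 7 shocks and downward after 1.

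The measured markers of the VMH itself did not separate the pair in the same way. Of 7 measured VMH markers, 1 was 2-fold higher after 7 shocks and none lower, with a median of -0.20, which stayed below 0 under all 11 settings tried. Nr5a1 read 130 after 7 shocks and 158 after 1, within 67.3 to 158 on all 5 arrays. Slc17a6 read 563 against 561 (0.01, and -0.04 on its other probe set). Adcyap1 read 1171 against 1341 (-0.20). The synaptic organiser Cbln1 read 676 against 1041 (-0.62, with -0.44 and -0.28 on its other probe sets). The exception was Bdnf at 1.50, which is described with the activity genes. Below the brightness limit, Fezf2, Lhx9, Nkx2-1 and Sox14 had deposited signals of 42.6, 28.7, 18.4 and 10.6 after 7 shocks. After 1 shock these were 2.2, 6.7, 10.8 and 1.4, so these dim members went the way of the cortical list. Esr1 was level (8.2 and 8), and Dlk1 went the other way (11.2 and 21.3). The scaled signal of the 13 VMH genes on the array, summed in the same way, was 3396 after 7 shocks and 3835 after 1, with 2285 to 3352 on the other 3 arrays.

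Arcuate nucleus markers, which belong to the neighbouring feeding centre, read higher after 7 shocks. Here 3 of 4 measured genes were past 2-fold, with a median of 1.25 that ranged from 0.24 to 1.45 over the 11 settings. Npy, the appetite-stimulating neuropeptide Y, read 117 after 7 shocks and 29.5 after 1 (1.99), with 85.8, 79.9 and 41.0 on the sham, 1-shock 2 h and 7-shock 2 h arrays. Tac2, which encodes neurokinin B, read 80.9 against 29.3 (1.47) and 15.0 to 48.0 elsewhere. Pomc, the precursor of the satiety peptide alpha-MSH, read 661 against 321 (1.04), above 265 to 404 on the other 3 arrays, with 0.74 on its other probe set, and it fell short of 2-fold as the mean of its probe sets (0.89). Cartpt, an arcuate satiety peptide, differed by -0.61, so the list did not move as a whole. For Tac2 and Pomc the 7-shock array was the highest of the 5, whereas for Npy the 1-shock 6 h array was also the lowest.

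Of the dorsomedial and lateral hypothalamic markers, 0 of 4 measured were past 2-fold, with a median of -0.39. These were Ppp1r17 (-0.53), Hcrt (-0.50), Pdyn (-0.28) and Nts (0.31). Genes of more distant territories were mostly dim. Vip, a peptide of the suprachiasmatic nucleus and of cortical interneurons, read 58.8 after 7 shocks and 4.07 after 1 (3.85), with 51.3 to 76.1 elsewhere. Oxt, the oxytocin gene of the paraventricular and supraoptic nuclei, read 52.1 against 11.5 (2.18), but the sham array was also low at 16.4 and the 7-shock 2 h array high at 52.8. Trh differed by 0.26. Ppp1r1b, the striatal phosphatase inhibitor DARPP-32, read 95.8 against 19.1 (2.33), with 23.7 to 33.8 elsewhere, so here the 7-shock array alone was high. Rgs9, the other measured striatal gene, differed by 0.06. Below the brightness limit, Avp, Six6 and Rasd2 of the lists of Oxt, Vip and Ppp1r1b had deposited signals of 34.4, 7.8 and 19.6 after 7 shocks. After 1 shock these were 53.5, 50.6 and 48.6. Other members below the limit were dimmer and went both ways. Rgs16, on the thalamic list and also an inducible brake on G-protein signals, read 6.21 against 38.2 (-2.62), with 29.7 to 75.0 elsewhere. Tcf7l2, the other measured thalamic gene and the brighter, read 152 against 254 (-0.75, and -0.41 on its other probe set), with 77.8 to 188 elsewhere. For Tcf7l2 the single-shock array was thus the highest, and the 7-shock array lay within the range elsewhere. No mammillary, choroid plexus or blood marker was bright enough to be measured.

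**Figure D2:**
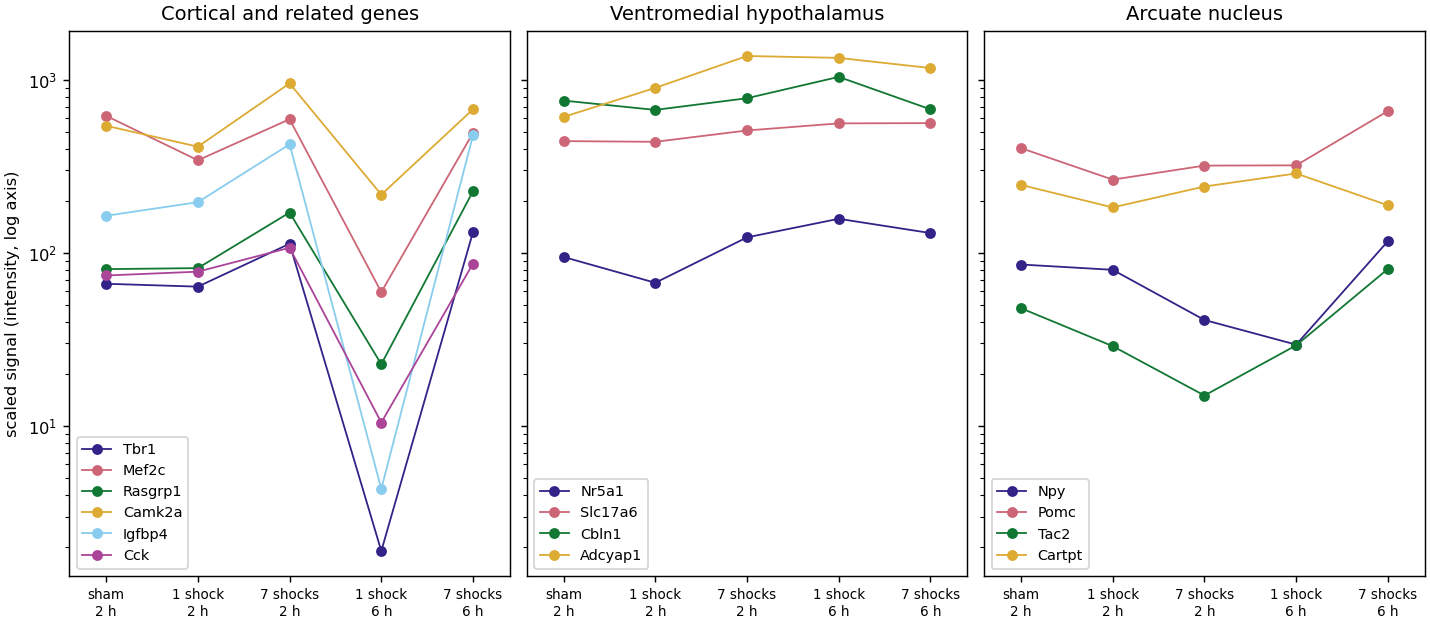
Scaled signal (intensity, log axis) of single genes on the 5 arrays, 1 pooled array per point, with lines joining the points of a gene. The cortical and related genes drop on the 1-shock 6 h array alone. The VMH genes differ less between the 6 h arrays (after 1 and 7 shocks, Nr5a1 at 158 and 130 and Cbln1 at 1041 and 676). Npy, Pomc and Tac2 are highest after 7 shocks at 6 h.

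Activity-regulated effector genes read higher at 6 h after the seventh shock than after a first one. Of 18 measured, 5 were past 2-fold higher and 1 lower, 15 lay above 0, and the median was 0.49 against -0.05 over all genes. The called shares were 27.8% higher and 5.56% lower, beside 7.91% and 8.59% over all genes. Relative to the median of the other 3 arrays, which include both 2 h arrays, the list median was 0.18 on the 7-shock array and -0.44 on the 1-shock array. The 1-shock array thus departed further on this list. Arc, the synaptic scaffold that governs AMPA receptor removal, read 71.4 after 7 shocks and 16.5 after 1 (2.11), with 18.0 on the sham array, 158 at 2 h after 1 shock and 54.3 at 2 h after 7. At 6 h the 1-shock reading of Arc was near that of sham, and the 7-shock reading was above its 2 h counterpart. Bdnf, the neurotrophin through which the VMH limits food intake, read 204 against 71.8 (1.50), the highest of the 5 arrays, with 42.2 on the sham array and 134 and 86.1 at 2 h after 1 and 7 shocks.

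Rgs4, which shortens G-protein signals, read 505 after 7 shocks and 224 after 1 (1.17), with 241 in sham, and its 3 probe sets lay between 1.17 and 1.96. Gadd45b, an activity-induced gene linked to DNA demethylation, read 70.9 against 25.9 (1.45), and the CREB-pathway kinase Sik1 read 57.8 against 20.2 (1.51). On both, the sham array lay between the 6 h arrays, at 32.5 and 33.3. The exception was Pcdh8, an activity-induced cadherin, at 16.5 against 39.6 (-1.26). Other effectors differed less, among them the pentraxin Nptx1 (0.59), the kinase Plk2 (0.46), the Egr corepressor Nab2 (0.06) and the pentraxin Nptx2 (-0.21). Homer1, a postsynaptic scaffold, differed by 0.69 on its brightest probe set and by -0.13 to 4.53 on the others.

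The immediate early transcription factors were divided. Of 10 measured, 3 were 2-fold higher (30.0%) and 2 lower (20.0%), beside 7.91% and 8.59% over all genes, with a median of 0.23. Relative to the median of the other 3 arrays, the list lay at -0.68 on the 7-shock array and at -1.50 on the 1-shock array. Egr2, a zinc finger factor, read 113 after 7 shocks and 44.2 after 1 (1.35), with 31.2 in sham. Klf10, a TGF-beta-inducible zinc finger factor, read 170 against 81.4 (1.06), with 36.5 in sham. Ier5, a regulator of heat shock factor, read 250 against 90.7 (1.46), with 210 in sham. All 3 were lower at 6 h than at 2 h within each number of shocks. By contrast Fos read 25.5 against 23.3 (0.13) and Egr1 308 against 327 (-0.09), so these early markers of firing did not separate the pair by more than 0.13. Jun, the partner of Fos, was at 0.98 on one probe set and -0.88 on another. Myc, a growth-associated factor, read 21.6 against 70.2 (-1.70), and Klf6 150 against 355 (-1.24, but 0.54 on its other probe set).

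Feedback inhibitors of MAP kinase and growth factor signals were 2-fold higher after 7 shocks in 2 of 8 genes (25.0%, beside 7.91% over all genes), with a median of 0.63. Relative to the median of the other 3 arrays, the list lay at -0.24 on the 7-shock array and at -0.81 on the 1-shock array. The 7-shock array was thus not raised on this list. By their brightest probe sets all 8 lay above 0, but Rasa1, a Ras GTPase-activating protein at 0.68, was at -0.90 and -1.09 on its other probe sets, and Spred1, an inhibitor of Ras signalling at 0.51, had 1 probe set at -0.14. Dusp14, a MAP kinase phosphatase, read 29.5 against 9.21 (1.68), and Spry2, a brake on receptor tyrosine kinases, 115 against 42.3 (1.44). Errfi1, an inhibitor of the EGF receptor, read 152 against 77.1 (0.98), with 186 in sham, and the phosphatase Dusp1 was at 0.58. Within the feedback list, Dusp14 was low on the 1-shock array (33.6 in sham), whereas Spry2 was highest on the 7-shock array (97.5 in sham).

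**Figure D3:**
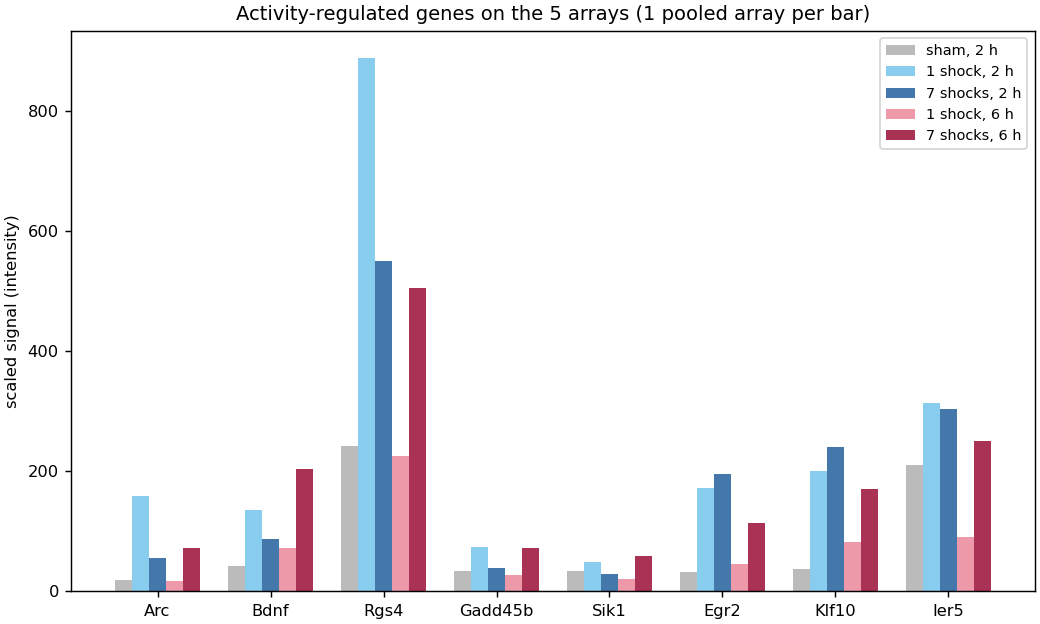
Scaled signal (intensity) of 8 activity-regulated genes, with 1 bar per pooled array and no error bar since no group has a replicate. At 6 h the 7-shock bar (dark red) is above the 1-shock bar (pink) for all 8 genes, and the 1-shock bar is near or below the sham bar for Arc (16.5 and 18.0) and Rgs4 (224 and 241).

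Promoters of the effector, immediate early and feedback genes that read higher are shown because these genes read higher together at 6 h. Of 10 such genes, 7 had a promoter in the RefSeq table of GRCm38.p6. Within the 250 bases before any of their starts, 3 of the 7 held the core of the cAMP response element (TGACG, either strand), which was present for 33.1% of measured genes and in 17.8% of all promoters of that length. The CArG box, the site of serum response factor, was held by 1 of the 7, against 1.52% of measured genes and 1.47% of all promoters. A gene with several listed starts had more bases searched: the core was found at 1 of 7 Bdnf starts and 3 of 5 Egr2 starts, and the CArG box at 4 of 5 Egr2 starts. The stretches below are 120 bases each, 5′ to 3′ on the strand of the gene, with the matched letters in capitals on whichever strand they lie. They are those of Bdnf (chr2:109692316-109692435, plus strand, up to the start), Rgs4 (chr1:169747769-169747888, minus strand, up to base 127 before the start) and Egr2 (chr10:67537446-67537565, plus strand, up to the start).
Bdnf: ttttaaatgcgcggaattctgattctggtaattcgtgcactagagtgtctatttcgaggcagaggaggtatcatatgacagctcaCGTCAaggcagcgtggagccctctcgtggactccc
Rgs4: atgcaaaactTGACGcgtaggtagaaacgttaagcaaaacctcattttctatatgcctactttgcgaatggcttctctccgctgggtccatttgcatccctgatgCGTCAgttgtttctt
Egr2: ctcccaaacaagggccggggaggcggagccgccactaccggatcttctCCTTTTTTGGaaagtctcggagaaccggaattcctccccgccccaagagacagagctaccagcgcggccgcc
A match describes letters only, and the probe sets do not tell which start was used.

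In the neuropeptide and granin list 6 of 26 measured genes (23.1%, beside 7.91% over all genes) were 2-fold higher and none lower, with a median of 0.26. The 6 were Vip, Cck and Oxt, and the arcuate genes Npy, Tac2 and Pomc described above. Cck, the satiety and cortical interneuron peptide cholecystokinin, read 86.9 after 7 shocks and 10.5 after 1 (3.05), with 74.1 to 107 elsewhere, so it shares the low single-shock reading of Vip and Tbr1. Penk, the enkephalin precursor, read 432 against 218 (0.99), the highest of the 5 arrays, while sham read 135. The secretory machinery differed little, with the granin Scg2 at 0.05, the convertase Pcsk1 at 0.26 and the carboxypeptidase Cpe at 0.09.

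Genes of energy balance signalling went both ways, with 2 of 12 higher, 2 lower (16.7% each way) and a median of -0.13. Over all genes the shares were 7.91% higher and 8.59% lower. Htr2c, the serotonin receptor through which serotonergic drugs reduce appetite, read 59.1 after 7 shocks against 17.5 after 1 (1.75), with 16.5 to 31.4 elsewhere, so the 7-shock array was the highest of the 5. Htr1b, an inhibitory serotonin receptor, read 28.6 against 57.7 (-1.01), the lowest of the 5. Npy1r, the neuropeptide Y receptor, also read 28.6, against 65.4 after 1 shock (-1.19), where the single-shock array was the highest. The leptin transducer Stat3 differed by 0.89, the insulin receptor Insr by -0.96 on one probe set and 0.67 on another, and the Bdnf receptor Ntrk2 by -0.21. Htr1b was within 2-fold without rescaling (-0.93).

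Among glucocorticoid-responsive genes, 1 of 15 was 2-fold higher and 2 lower, with a median of 0.22. The called share, 20.0%, was near the 16.5% over all genes, so the members below are single readings and not a result about the list. Zbtb16, a zinc finger factor induced by the hormone, read 65.7 after 7 shocks and 19.8 after 1 (1.73). Nr3c1, the glucocorticoid receptor itself, read 169 against 359 (-1.09), where the single-shock array was the highest of the 5 and the 7-shock array the lowest. Its 3 probe sets lay between -1.09 and -0.18. The metal-binding gene Mt1 read 699 against 1443 (-1.05), and the receptor cochaperone Fkbp5 185 against 95.4 (0.95). Mt1 was within 2-fold under each other scaling, at -0.96, -0.94 and -0.96.

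Heat shock genes were nearly level, at a median of -0.07, with 2 of 14 lower (14.3% called, beside 16.5% over all genes). Hspa1l, an Hsp70 family member, read 37.7 after 7 shocks and 141 after 1 (-1.90), and Hspa1a, the inducible Hsp70, 50.7 against 106 (-1.07). Both were highest on the single-shock 6 h array. In the circadian list 2 of 16 were higher and none lower (12.5% called, median 0.25, -0.12 without the brightness filter). Hlf, a PAR bZip clock output factor, read 78.0 against 9.39 (3.05, with 0.97 on its other probe set) and Npas2, a partner of Bmal1, 70.8 against 26.4 (1.42). Cry2, a clock repressor, was at 0.98 and the period gene Per1 at 0.22.

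Growth factor genes had 4 of 9 members higher (44.4%) and 1 lower (11.1%) around a median of 0.01, beside 7.91% and 8.59% over all genes. Tgfb2, a transforming growth factor, read 88.3 after 7 shocks and 22.5 after 1 (1.97), Igf1r, the receptor for insulin-like growth factors, 117 against 41.9 (1.49), and Fgfr1, a fibroblast growth factor receptor, differed by 1.15 or -0.76 by probe set. Bdnf was the fourth, and Fgf9, a glial and neuronal mitogen, was at -1.22. Of the insulin-like growth factor binding proteins, Igfbp4 was described above. Igfbp5 read 43.6 against 14.0 (1.64, and -0.07 on its other probe set), although sham read 165, and Igfbp3 read 14.9 against 42.6 (-1.52).

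Among calcium signalling kinases and phosphatases, 4 of 15 were 2-fold higher (26.7%, beside 7.91% over all genes) and none lower, with 11 above 0 and a median of 0.62. Camk4, a nuclear kinase that phosphorylates CREB, read 120 after 7 shocks and 22.2 after 1 (2.43, and 1.78 on its other probe set), with 29.5 in sham and 79.2 and 122 at 2 h. Besides Camk2a, protein kinase C alpha, Prkca, was at 1.37 and the upstream kinase Camkk2 at 1.07. Camk2a is also on the cortical list, whose part in these differences was not tested. Creb1 itself differed by -0.52, with up to 0.90 on its other probe sets.

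Potassium channel genes had 3 of 13 higher (23.1%) and 2 lower (15.4%), beside 7.91% and 8.59% over all genes. Their median of 0.69 stayed above 0 in all 11 settings. Kcnc1, which allows fast firing, read 34.1 after 7 shocks and 12.2 after 1 (1.48). Kcnj3, a G-protein-gated inward rectifier, read 25.9 against 68.4 (-1.40) and Kcnn2, a calcium-activated channel, 25.4 against 53.3 (-1.07). On these last 2 the 7-shock array was the lowest of the 5. Of the calcium and sodium channels 1 of 9 was higher and 1 lower, with a median of -0.23. Their called share, 22.2%, was near the 16.5% over all genes, so both are single readings and not a result about the list. Cacna1d, an L-type subunit, read 67.4 against 12.8 (2.39), with 20.8 to 31.9 elsewhere. Cacna1h, a T-type subunit, read 79.9 against 193 (-1.27, and -2.66 on its other probe set).

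Transmitter receptor genes showed no common direction. Of the glutamate receptors 1 of 5 was higher, the kainate subunit Grik2 at 77.0 against 25.8 (1.58), while the AMPA subunits Gria1 and Gria2 were at -0.86 and -0.24. Of the GABA receptors, Gabra3 was at 1.71, Gabrg3 at -1.07 and Gabrg1 at -1.16, the last with 1.15 on its other probe set. Gad1, which makes GABA, read 387 after 7 shocks and 128 after 1 (1.59, and 1.88 on its other probe set), with 200 to 449 elsewhere, whereas Gad2 and the vesicular transporter Slc32a1 were at 0.36 and 0.29 (1.76 on the other probe set of Slc32a1). Of general neuron markers 3 of 13 were higher (23.1%, beside 7.91% over all genes) and none lower (median 0.17): Nefm at 1.27, Syt1 at 1.09 and Rbfox3 at 1.07. Of the synaptic vesicle genes 2 of 18 were higher, Cplx2 at 1.39 and Syt1, with a median of 0.15. Their called share, 11.1%, was below the 16.5% over all genes, so these are single readings and not a result about the list.

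Astrocyte, myelin and microglial lists had medians within 0.20 of 0, while the oligodendrocyte precursor and tanycyte lists had higher medians after 7 shocks. Astrocyte genes had a median of 0.08 with 1 of 11 past 2-fold, the transcription factor Sox9 (102 against 45.7, 1.16), and Gfap was at 0.35. Myelin genes had a median of -0.04 with 0 of 7 past 2-fold. Oligodendrocyte precursor genes had a median of 0.68 and lay at 0.21 to 0.89, all 4 above 0 and none past 2-fold. Below the brightness limit, Olig2 and C1ql1 were not higher, with deposited signals of 28.6 and 11.5 after 7 shocks. After 1 shock these were 29.3 and 16.8. Of 8 microglial genes 1 was lower, the complement gene C1qc (25.5 against 74.7, -1.55), with a median of -0.20 and P2ry12 at -0.92. The endothelial tight junction gene Cldn5 read 42.5 against 96.3 (-1.18), where the single-shock array was high against 31.4 to 40.7 elsewhere. The other measured endothelial genes were nearly level, Slc2a1 at -0.13 and Slco1c1 at 0.27, and the list median was -0.13. The thyroid hormone genes Crym and Dio2, 2 of the 3 measured genes of the tanycyte list (median 1.30), read 74.9 against 10.9 (2.78) and 126 against 51.1 (1.30). The third and brightest, Vim, did not share this, at 313 against 353 (-0.17, and up to 0.22 on its other probe sets). The median of the tanycyte list ranged from -0.01 to 1.39 over the 11 settings and was below 0 in 1.

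The genes of basic metabolism were near the median of all genes or slightly below it. Cytosolic ribosomal proteins had a median of -0.31, with 2 of 12 above 0 and 0 past 2-fold, and stayed below 0 in all 11 settings. Respiratory chain and ATP synthase genes had a median of -0.11 with 3 of 21 above 0, and 1 past 2-fold, the complex III subunit Uqcrfs1 (123 against 249, -1.02), which was within 2-fold in 5 of 10 alternatives. Proteasome and ubiquitin genes (median -0.17) and chromatin-modifying enzymes (0.01) had no member past 2-fold. Sterol genes had a median of -0.04, with Mvd at 1.22 and the master regulator Srebf2 at -1.93, or 0.75 on its other probe set. In the matrix list 3 of 13 were higher (23.1%) and 1 lower (7.69%), beside 7.91% and 8.59% over all genes. They were Col1a1 at 2.29, Lamc1 at 1.38, the brain proteoglycan Ncan at 1.21 (0.09 on its other probe set) and Col4a2 at -1.15. The single measured inflammation gene, Nfkbia, was at -0.22, with up to 0.99 on its other probe sets. The sign of the list median changed in 2 to 4 of the 11 settings for the astrocyte, myelin, pericyte, heat shock, growth factor, circadian, sterol, glutamate receptor, GABA receptor, proteasome and chromatin lists.

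**Figure D4:**
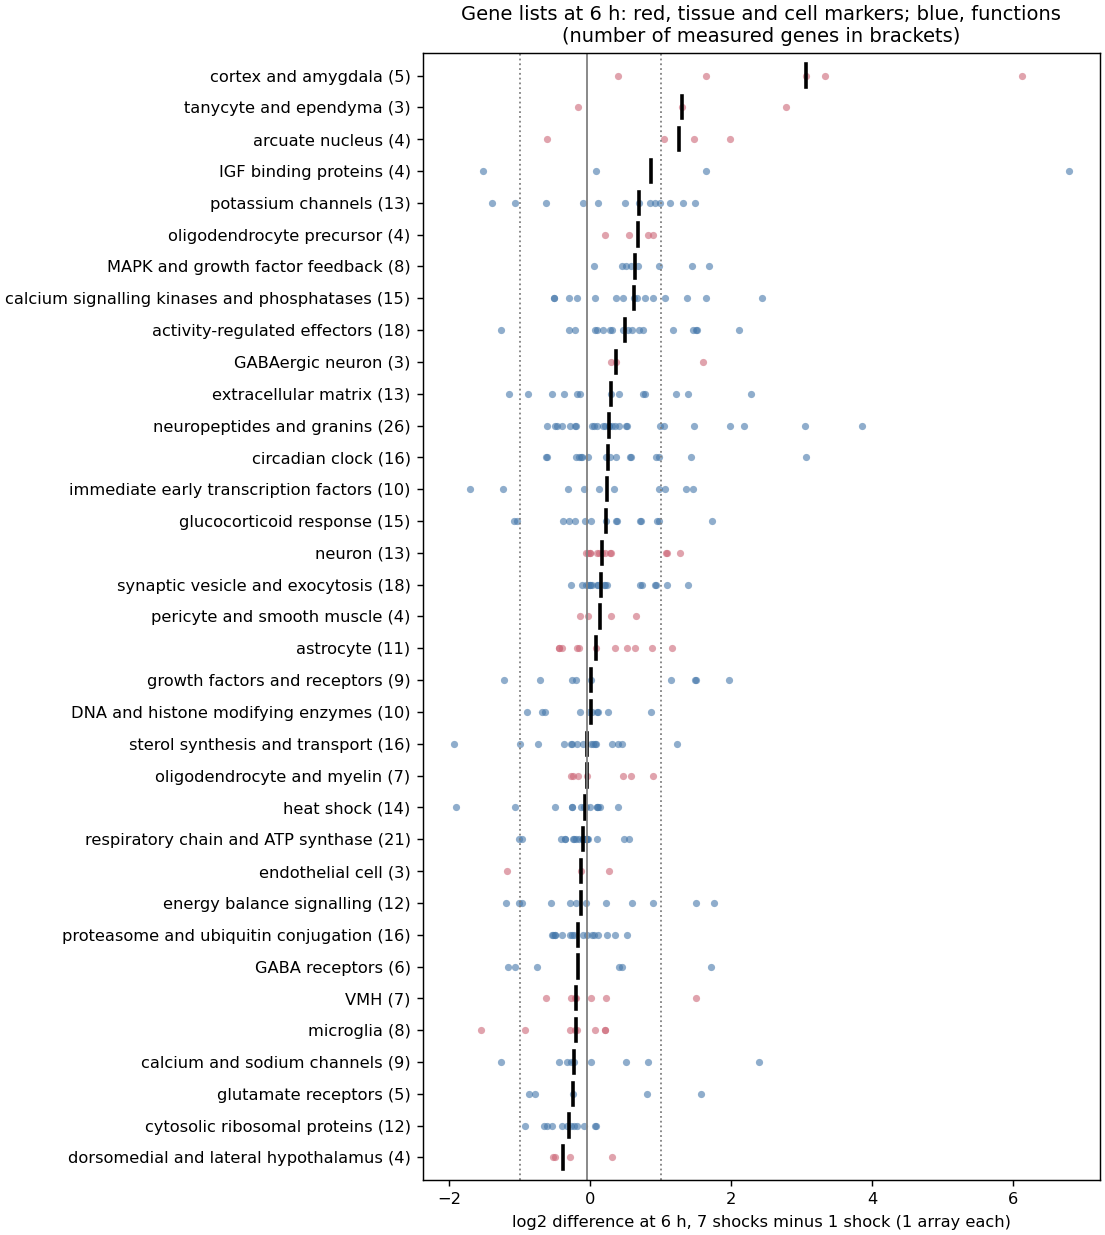
Log2 difference at 6 h, 7 shocks minus 1 shock, of every measured member (points) of the lists with at least 3 of them, with the list median (black bar), dotted lines at 2-fold and a grey line at the median of all genes. Among these lists the cortical and amygdalar markers have the highest median (3.06), the VMH markers lie at -0.20, and most other lists centre near 0.

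Beyond the lists, the genes furthest apart at readable brightness were named by rule. On the higher side these included Myh3, a developmental myosin (89.7 after 7 shocks and 6.96 after 1, 3.69), Mknk1, a MAP kinase-activated kinase that phosphorylates eIF4E (142 against 11.5, 3.63), and Klf12, a transcriptional repressor (127 against 11.7, 3.43). Mknk1 and Klf12 were highest on the 7-shock 6 h array, with 16.3 to 23.7 and 20.6 to 45.6 on the other 3 arrays. Pter (3.29), Hivep3, a zinc finger factor (3.14), Chst15, a chondroitin sulfate sulfotransferase (3.13), and Trim26, a ubiquitin ligase (3.07), followed. For Trim26 the 7-shock array read 145 and the other 4 lay between 10.9 and 42.0.

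On the lower side, Urm1, a ubiquitin-like modifier of tRNA, read 20.7 after 7 shocks and 380 after 1 (-4.20), and Ubap2, a ubiquitin-associated protein, 25.5 against 371 (-3.86). The other 3 arrays read 20.7 to 63.8 and 29.9 to 58.6, so these were high on the single-shock array only. Iars, the cytosolic isoleucine tRNA ligase, read 146 against 1011 (-2.79, and -1.52 on its other probe set), with 263 to 345 elsewhere. Here both 6 h arrays departed, in opposite directions. Bbs2, a BBSome subunit whose loss causes obesity (-2.84), Txndc5 (-2.78), Trim25 (-2.76), Eri2 (-2.69), Gemin2 (-2.66), Clmp (-2.46), Bcs1l, an assembly factor of complex III (-2.45), Gtf2ird1 (-2.44) and Sfrp2, a Wnt antagonist (-2.44), followed.

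Where a gene had several probe sets, these could be compared with each other. Genes were ranked by the smallest difference over their probe sets, so the agreement shown follows from the rule. Igfbp4, Ccn3, Adipor1, H1f2 and Snx6 had only kept probe sets with suffix x, s or a. Whether those are separate readings was not tested. On the higher side Rasgrp1, Igfbp4, Dkk3, Mef2c, C1ql3 and Camk4 were joined by Trpc1, a cation channel (107 after 7 shocks and 24.1 after 1, 2.14 and 2.16 on its probe sets), and Ccn3, a matricellular protein (1.65 to 1.74). On the lower side the ranking was led by Sbf2, a myotubularin-related protein (45.8 against 247, -2.67 to -2.43), and Adipor1, an adiponectin receptor (31.9 against 134, -2.07 to -1.88). Adipor1 read 64.6 to 98.1 on the other arrays, so the 7-shock array was the lowest and the single-shock array the highest. Rnf26 (-2.03 to -1.65), the linker histone H1f2 (-1.70 to -1.56), the sodium channel subunit Scn3b (-1.68 to -1.51), the sorting nexin Snx6 (-1.71 to -1.44) the mitochondrial carrier Slc25a36 (-1.40 to -1.38) and Iars completed that set. For Scn3b the 7-shock array read 20.9 and the other 4 between 59.7 and 87.9.

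**Figure D5:**
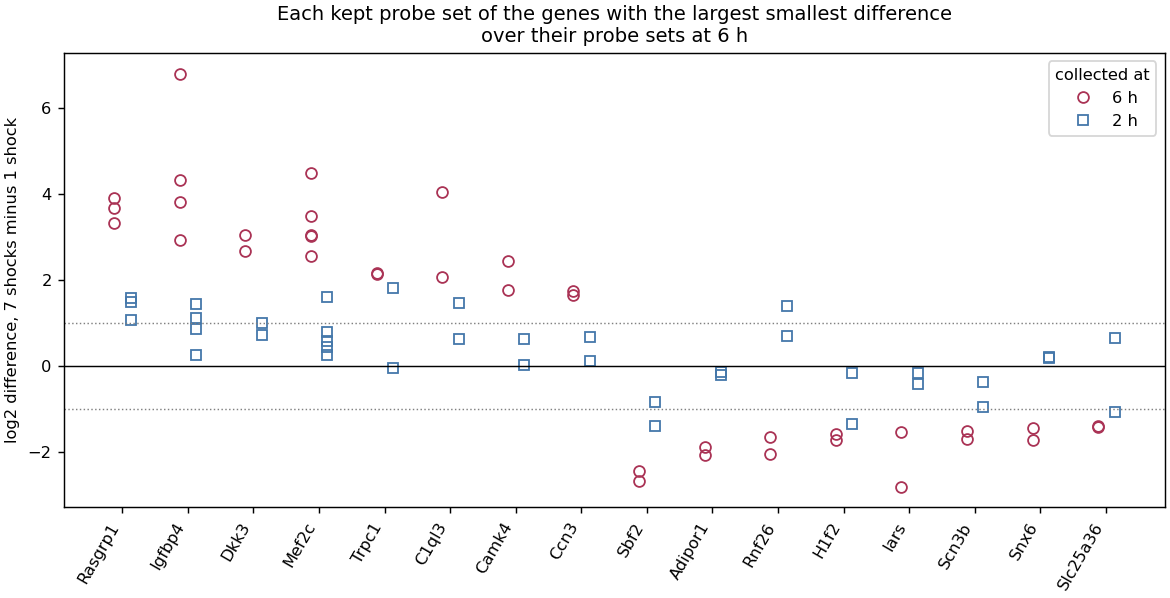
Log2 difference, 7 shocks minus 1 shock, of each kept probe set (1 symbol each) of the 16 genes ranked highest by the smallest difference over their probe sets at 6 h (8 per direction), at 6 h (red circles) and at 2 h (blue squares), with dotted lines at 2-fold. The 3 probe sets of Rasgrp1 lie between 3.32 and 3.91 at 6 h, and for most of the genes the 2 h symbols lie nearer to 0.

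Single genes that set the 7-shock 6 h array apart were chosen with their values in view. On it 4 genes were at least 4-fold above each other array: Mknk1, Larp1b, an RNA-binding protein (142 against 17.5 to 28.0), Padi2, which converts arginine to citrulline in proteins and is prominent in myelinating glia (159 against 27.4 to 37.7), and Strbp (379 against 67.6 to 88.8, with -0.23 in the 6 h comparison on its other probe set). Another 6 were at least 4-fold below: Zic1, a zinc finger factor of dorsal midline and thalamic neurons (5.44 against 46.7 or more), Rgs16, Frmd4b, Mfsd3, Palm and Zfp810. These 6 had deposited signals of 8.2 or less there, so their sizes are uncertain. By the same rule 2 genes were above and 4 below on the sham array and on the 1-shock 2 h array. On the 7-shock 2 h array 0 were above and 4 below, and on the 1-shock 6 h array 5 and 16. The counts of the 7-shock 6 h array were thus only a little above those of the sham array.

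The same contrast at 2 h uses a separate pair of arrays. Before scaling, the kept probe sets stood at 0.50 against sham on the 7-shock 2 h array and at -0.13 on the 1-shock 2 h array. The 2 h differences therefore rest more on the scaling than those at 6 h. There 460 genes (6.92%) were 2-fold higher and 454 (6.83%) lower after 7 shocks than after 1. Of the 526 genes higher at 6 h, 67 (12.7%) were also higher at 2 h and 46 (8.75%) lower, so the 67 were 14.6% of the 2 h list. Of the 571 lower at 6 h, 68 (11.9%, and 15.0% of the 2 h list) were lower at 2 h too and 51 (8.93%) higher. The sign was the same at both times for 52.4% of called genes and for 52.6% of all genes, and the correlation across genes was 0.06. Genes are not independent replicates, and this is a description of 4 arrays.

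Among the genes higher at both times, Myh3 was at 3.69 at 6 h and 2.97 at 2 h, Ctnnd1, the p120 catenin, at 2.62 and 2.11, and Mrtfa, a coactivator of serum response factor, at 2.50 and 1.89. Ctnnd1 read 172 and 116 on the arrays of 7 shocks and 25.9 to 27.8 on the other 3, so it was split by the number of shocks. Crym (2.78 and 1.79), Tgfb2 (1.97 and 1.75), the DNA ligase Lig1 (1.83 and 1.99), Ogfod3 (1.80 and 2.14) and Smc4 (2.86 and 1.67, but 0.89 and -0.34 on its other probe set) were also high at both. Lower at both were Mob1a, a Hippo pathway kinase activator (-3.13 and -2.38), Tgm2, a transglutaminase (-2.63 and -2.09), Smo, the Hedgehog signal transducer (-1.61 and -3.56), Rpia (-1.92 and -3.60), Arid2, a chromatin remodelling subunit (-1.66 and -1.90), Man2c1os (-1.62 and -1.83), Crlf3 (-2.11 and -1.61) and Nipsnap3b (-1.59 and -2.51). At 6 h Tgm2 had a further probe set at 0.08, and both other probe sets of Mob1a went the opposite way, at 0.16 and 0.91.

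The effector genes called higher at 6 h were ordered differently at the 2 times. The effector list was at 0.49 at 6 h and at -0.63 at 2 h. Arc was at 2.11 at 6 h and -1.54 at 2 h, Bdnf at 1.50 and -0.64, Gadd45b at 1.45 and -0.94, Sik1 at 1.51 and -0.74, and Rgs4 at 1.17 and -0.69. On the scaled signal these genes were therefore lower after 7 shocks than after 1 at 2 h and higher at 6 h, in single arrays. At 2 h the deposited signals of Bdnf (101.5 after 7 shocks and 101.9 after 1), Rgs4 (653.5 and 679.7) and Sik1 (33.2 and 35.8) were nearly level. Those of Gadd45b (44.1 and 54.8) and Arc (63.6 and 119.6) were lower after 7. The difference between the times was not tested. The immediate early list was at 0.23 and -0.04, and the feedback list at 0.63 and -0.21. Their called higher genes did not reverse in this way. Egr2 was at 1.35 at 6 h and 0.18 at 2 h, Klf10 at 1.06 and 0.26, and Ier5 at 1.46 and -0.05. Dusp14 was at 1.68 and 0.27, and Spry2 at 1.44 and 0.19.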

How the data were processed

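The 5 arrays are Affymetrix 3' arrays of 22690 probe sets. Per the submitters' processing notes, the deposited intensity values are MAS5 signals on a linear scale; no source used here states the target intensity or detection calls. Probe sets with 1 gene symbol numbered 20380 (20351 matched to RefSeq by gene ID), while 64 controls, 691 with several symbols and 1555 unnamed here were left out. To each value 1.2, the 10th percentile, was added, and log2 was taken. The brighter 50% of probe sets by their mean over the 5 arrays were kept (10402, 6650 genes), each array was centred on its median, and a gene took its brightest probe set. Genes were called at 2-fold; with 1 array per group there is no test, and precision is limited by the number of arrays. List members below the filter do not count as measured.

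The named genes were list members past 2-fold or among the 4 furthest of their list; per direction the 12 furthest at readable brightness with 1 sign on all probe sets, the 8 whose smallest difference over several probe sets was largest, the 8 shared with 2 h and the 4 opposed there. Other list members with smaller differences were added with their values in view. The members, the 42 gene lists and the rules were chosen with earlier results of these data known. The steps were tested on simulated data. The noise put in was smaller than the spread of the 6 h differences here (SD 0.78). The simulation therefore checks the steps and not how reliable a 2-fold call is. Alternatives changed the scaling (none, quantile, cyclic loess by limma 3.58.1), pseudocount, filter, probe set summary and suffix classes. Python 3.11.15, numpy 2.4.6 and pandas 2.3.3 were used.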

Additional observations from a re-analysis of the deposited data

Results flagged for a closer look

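Among the named genes, 17 were at least 2-fold higher after 7 shocks than after 1 at one time and at least 2-fold lower at the other, on single arrays, and the difference between the times was not tested. As the 6 h difference minus the 2 h difference on the log2 scale, those higher at 6 h and lower at 2 h were Taf4 (4.40), Arc (3.65), Bak1 (3.64), Zyx (3.61), Lamc1 (3.53), Xrcc6 (3.44), Zbtb16 (3.10) and Fgfr1 (2.32). Those lower at 6 h and higher at 2 h were Urm1 (-5.82), Frmd4b (-5.56), Cxcl12 (-5.30), Acaa1b (-4.43), Map4k5 (-4.42), Gtf2ird1 (-4.28), Rgs16 (-3.96), Txndc5 (-3.93) and Eri2 (-3.77). Taf4, Bak1, Zyx, Xrcc6, Frmd4b, Cxcl12, Acaa1b and Map4k5 were named for this very opposition.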

How the results depend on the processing

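The counts of genes 2-fold higher and lower, 526 and 571, became 1785 and 1879 with no filter on low values (12393 genes), 136 and 162 in the brightest 25% of probe sets (3516 genes), and 319 and 376 with both 6 h signals above their array median (5939 genes). With the median of the other 3 arrays in place of the 1-shock 6 h array they were 293 and 356, and with it in place of the 7-shock 6 h array 372 and 315. The share higher was 58.3% without rescaling. Of 124 called named genes, 103 stayed past 2-fold the same way in every alternative that kept them, 21 came within 2-fold in at least 1, and 1 of these, Mob1a, reversed to 0.16 with both 6 h signals above the array median. Means over probe sets brought, among others, Fgfr1 to 0.20, Gabrg1 to -0.01, Igfbp5 to 0.79, Kcnab1 to 0.41, Klf6 to -0.35, Ncan to 0.65 and Srebf2 to -0.59. The causes were not tested. The cortical and amygdalar median lay between 1.64 and 3.32 over the settings and the effector median between 0.29 and 0.58. No paired analysis was possible because each group has 1 array.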
